A study of Mus musculus with 4 samples.

Results

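The cells described here were vagal ganglion neurons in which no transcript of *Scn10a* was counted. *Scn10a* encodes Nav1.8, the voltage-gated sodium channel that carries much of the action potential current of nociceptors and of most unmyelinated sensory neurons. They were chosen by counts of transcripts in Xenium data, an in situ method that images single transcripts of a fixed gene panel in a tissue section and assigns them to segmented cells. A cell had to hold at least 30 transcripts in all, at least 5 transcripts of *Snap25*, *Tubb3*, *Scg2* and *Gap43* together, 0 of *Scn10a*, 0 of *Prdm12* and at most 2 of *Calca*. Of 9785 cells, 1331 met the first 2 conditions and were treated as neurons, and 167 met all of them. They numbered 48, 54 and 65 in ganglion sections 1, 2 and 3, and made up 12.6% ± 0.556 (SD, n = 3 sections) of the neurons.

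All 3 sections came from vagal ganglia of male adult C57BL/6 mice given *A. alternata* extract, a fungal allergen preparation that drives allergic airway inflammation. The mice received 50 µL of extract at 25 µg/mL through the nose on days 0, 3, 6 and 9, and tissue was taken 16 h after the last dose, fixed in 4% paraformaldehyde and cut at 5 µm. No ganglion section from untreated animals was among the samples used here, so every group below is a class of cells within treated sections, and no effect of the extract could be measured. The labels do not say that the sections came from separate mice, so p-values measure only the spread between these 3 sections, which may be technical.

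The vagal ganglia join a nodose part, of placodal origin and marked by *P2rx3*, to a jugular part, of neural crest origin and marked by *Prdm12* and often by peptides such as *Calca*. Together they carry mechanical, chemical and irritant signals from the airways, heart and gut to the brainstem. In sensory ganglia generally, neurons with little Nav1.8 include large myelinated mechanoreceptors and muscle afferents, whereas neurons rich in Nav1.8 include the peptidergic and irritant-sensing C fibres. *Scn10a* lies at chr9:119608456-119719322 in the RefSeq annotation of GRCm38.p6, matched by gene symbol because the files name no genome build.

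The neurons were compared with neurons that held 3 or more transcripts of *Scn10a*, called *Scn10a* neurons (770 cells), and with the 624 of these that also held no *Prdm12* and at most 2 of *Calca*, called matched *Scn10a* neurons. Levels are given as CPM, the count scaled to a fixed total of panel transcripts, from transcripts summed over the cells of a class within a section. The genes the choice used carry no test. As a description, *Snap25*, a synaptic vesicle fusion protein, was counted in 158 of the 167 neurons, and *Tubb3*, neuronal tubulin, in 156. *Gap43*, a growth cone protein, stood at 34562, 36348 and 38026 CPM in the neurons without *Scn10a* and at 43667, 40115 and 46794 CPM in the matched *Scn10a* neurons. *Scg2*, a granule protein, stood at 37418, 50155 and 33273 CPM against 64988, 63653 and 57057 CPM.

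The neurons without *Scn10a* were shallow. They held 11468 transcripts in all, with a median of 54 per cell (range 30 to 294), whereas the *Scn10a* neurons had a median of 129 and the matched ones 134. The share of neurons with no *Scn10a* was smaller at greater depth, from 32.4% of 222 neurons with 30 to 49 transcripts to 19.3% of 493 with 50 to 99, 5.88% of 391 with 100 to 199 and 1.33% of 225 with 200 or more. By section, the first of these shares ranged from 23.4% to 41.0% and the last from 0% to 1.94%. A count of 0 at low depth does not show that a neuron lacked the transcript: where *Scn10a* was counted at all, its median was 2 transcripts in neurons of 30 to 49 and 21 in those of 200 or more. Of the 167 neurons, 143 therefore had fewer than 100 transcripts, and 24 had 100 or more. Fits within each of these ranges of depth are given after the comparisons.

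**Figure D1:**
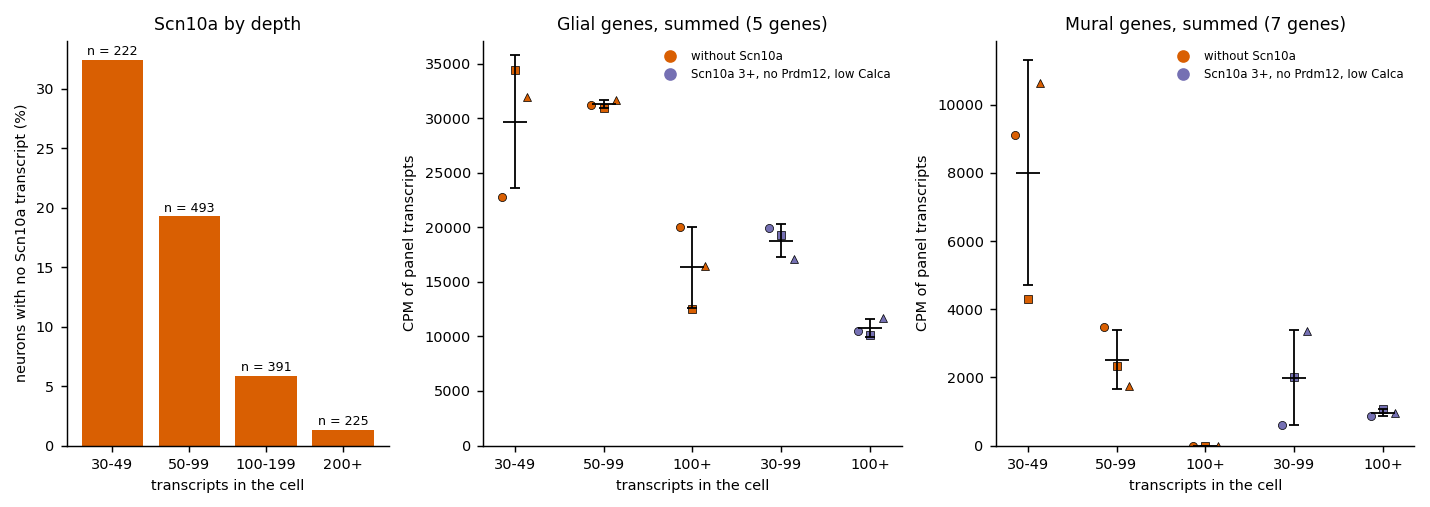
The bars give the percentage of neurons in which *Scn10a* was 0 by the number of transcripts per cell, and the other panels give the summed CPM of the glial and the mural lists per section (points) in neurons without *Scn10a* (orange) and matched *Scn10a* neurons (purple) by depth, with the mean and SD. The share with no *Scn10a* went from 32.4% to 1.33%, and in both groups the mean summed glial level was lower at 100 or more transcripts.

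The values just inside and outside the threshold on *Scn10a* are given as a description. Over all sections, *Vsnl1* stood at 9418 CPM in the 167 neurons with 0 transcripts of *Scn10a*, at 2907 CPM in the 182 otherwise alike neurons with 1 transcript, and at 3243 CPM in the 134 with 2. *Slc17a7* stood at 2093, 707 and 556 CPM, and *Asic3* at 3837, 1335 and 1575 CPM. In the other direction, *Trpa1* stood at 7848, 16732 and 15844 CPM and *Chrna3* at 9069, 14376 and 14454 CPM. Among 0, 1 and 2 transcripts of *Scn10a*, the largest step for these genes lay between 0 and 1. *Vsnl1*, *Slc17a7* and *Asic3* were lower again in the matched *Scn10a* neurons, which held 3 or more. There they had 118, 12 and 81 of 105648 transcripts, so the change was not confined to the threshold. At the other edges, 17 of the neurons held 30 to 34 transcripts, 41 reached the neuron sum with 5 or 6, and 23 held 1 or 2 transcripts of *Calca*.

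*Asic3*, the proton-gated channel listed as a marker of these cells, was present in a minority of them. It encodes an acid-sensing ion channel of mechanosensory and metaboreceptive afferents, and lies at chr5:24413451-24417840. It was counted in 26 of 167 neurons (15.6%), with 44 transcripts in all, at 3713, 3099 and 4527 CPM in sections 1, 2 and 3. The matched *Scn10a* neurons stood at 849, 550 and 861 CPM, below every section of the neurons without *Scn10a*. All *Scn10a* neurons stood at 2239, 2491 and 1964 CPM, also below, and the log2 fold change was 2.06 against the matched neurons and 0.59 against all, where it turned to -0.53 at 30 to 99 transcripts. The neurons with 1 or more *Prdm12* stood above them all at 21423, 15326 and 11745 CPM. With each cell thinned to 30 transcripts, the mean share with *Asic3* was 7.64% in the neurons without *Scn10a*, 2.21% in the matched neurons and 3.60% in the 403 cells with fewer than 5 neuron transcripts (median 36 transcripts), which serve as background. Among the neurons without *Scn10a*, the 24 with 100 or more transcripts stood at 6582 CPM. The name is therefore kept for what was counted, neurons without *Scn10a*, and not for *Asic3*.

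Against all *Scn10a* neurons, edgeR's quasi-likelihood test with the section as a block called 58 of 130 genes (44.6%) at an adjusted p under 0.05, 34 higher (26.2%) and 24 lower (18.5%) in the neurons without *Scn10a*. Against the matched *Scn10a* neurons it called 59 of 118 (50%), 30 higher (25.4%) and 29 lower (24.6%). Over every gene tested, the log2 fold changes had a median of -0.03 in both. Against the matched neurons the count was 25 without section 1 and 32 without section 3. Of the 59 genes called over all sections, 23 and 31 were called again in the same direction. Of 28 of the named genes, which leave out *Celf3*, 16 and 11 no longer passed. *Vsnl1*, *Slc4a4*, *Ldhb*, *Trpv1*, *Chrna3*, *Mgll* and *Chl1* passed without each section in turn. Without the filter on low counts the balance turned, to 12 higher and 54 lower against all *Scn10a* neurons and 12 higher and 56 lower against the matched ones, with medians over all genes of -0.64 and -0.61. The comparisons share the neurons without *Scn10a* and most of the others, so they are not independent. The *Scn10a* neurons against which change is measured held genes of the choice, such as *Scg2* and *Gap43*, in large amounts. By definition the matched ones held no *Prdm12* and at most 2 of *Calca*. All 7 genes of the choice were left out of the sums before fitting, though not out of the CPM.

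The genes that were higher included several neuronal ones. *Vsnl1* encodes visinin-like protein 1, a neuronal calcium sensor, at chr12:11325257-11436578. It stood at 10568, 9017 and 8828 CPM in the neurons without *Scn10a* and at 601, 1295 and 1312 CPM in the matched *Scn10a* neurons, so the groups lay far apart in every section. The log2 fold change was 2.85 ± 0.28 (SE) against the matched neurons (edgeR adjusted p = 2.01e-07) and 2.78 ± 0.29 against all *Scn10a* neurons (edgeR adjusted p = 0.000184). It was counted in 46 of the 167 neurons (27.5%). With cells thinned to 30 transcripts the mean share was 16.7%, against 3.07% in the matched neurons and 3.56% in the cells with few neuron transcripts.

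*Slc17a7*, the vesicular glutamate transporter VGLUT1, lies at chr7:45163921-45176139 and is known in sensory ganglia from large mechanoreceptive neurons. It stood at 1143, 1972 and 2943 CPM in the neurons without *Scn10a* and at 35.4, 130 and 151 CPM in the matched *Scn10a* neurons, again without overlap. The log2 fold change of 3.92 ± 0.56 was the highest of the genes tested in that comparison. It rested on few transcripts, 24 in 13 of 167 neurons against 12 in 11 of 624. *Slc17a7* entered the fit only through the neurons without *Scn10a*, where it was high, so no p is given for it. *Slc17a6*, the related transporter VGLUT2 of most vagal afferents, went the other way, at 19709, 14652 and 19919 CPM against 22311, 24348 and 24075 CPM (log2 -0.64 ± 0.11, edgeR adjusted p = 0.000114). It was nonetheless counted in 109 of the 167 neurons.

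*Car2*, a cytosolic carbonic anhydrase long used to mark large sensory neurons, stood at 2856, 2254 and 1132 CPM against 318, 227 and 452 CPM (log2 2.25 ± 0.52). It too entered the fit only through the neurons without *Scn10a*, so no p is given for it. *Cplx2*, a complexin that controls vesicle fusion, stood at 21994, 9580 and 15618 CPM against 6364, 6055 and 6691 CPM (log2 1.01 ± 0.18, edgeR adjusted p = 0.000113). Both were separated in all sections, but neither passed without section 1, and *Cplx2* did not pass without section 3 or without the filter on low counts. *Pvalb*, the calcium buffer parvalbumin of proprioceptors, was too rare to test, with 17 transcripts in 7 of the neurons without *Scn10a* and 5 transcripts in 4 of the 624 matched neurons.

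*Kcna1*, a fast potassium channel subunit of myelinated axons, belonged to the same list as *Asic3* and is given without a test. It stood at 4284, 3945 and 4301 CPM against 990, 1101 and 624 CPM. The cells with few neuron transcripts held it too, at 2988, 7569 and 5077 CPM. The other members of that list of acid-sensing and large-fibre genes were mixed. *Asic2* (log2 0.34, edgeR adjusted p = 0.431) and *Calb1* (log2 0.11, edgeR adjusted p = 0.854) did not pass the test. *Etv1*, a transcription factor needed by proprioceptors and by some vagal neurons, was lower (log2 -0.61 ± 0.11, edgeR adjusted p = 0.000137), at 17257 ± 2846 against 21713 ± 1534 CPM (SD, n = 3).

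*Slc4a4*, *Ldhb* and *Ppargc1a* were also higher. *Slc4a4*, a sodium bicarbonate cotransporter, stood at 11997, 7326 and 9733 CPM against 1733, 1910 and 2259 CPM (log2 2.01 ± 0.23, edgeR adjusted p = 1.17e-06). *Ldhb*, the lactate dehydrogenase subunit of oxidative tissues, stood at 21708, 14370 and 15165 CPM against 5693, 5925 and 6153 CPM (log2 1.24 ± 0.16, edgeR adjusted p = 4.52e-06). *Ppargc1a*, a coactivator of mitochondrial genes, stood at 3428, 3945 and 3622 CPM against 884, 1166 and 1162 CPM (log2 1.50 ± 0.32, edgeR adjusted p = 0.000667), and did not pass without section 1 or without the filter on low counts. No section of one group overlapped the other for any of these. Of the 5 genes of the energy metabolism list, all tested, 2 were higher (beside 25.4% of all genes) and none lower against the matched neurons, with a median of 0.50, and 3 were higher against all *Scn10a* neurons. *Ndufs8*, a subunit of respiratory complex I, stood at log2 -0.07 (edgeR adjusted p = 0.762).

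*Slc4a4*, *Ldhb* and *Ppargc1a*, unlike *Vsnl1* and *Slc17a7*, were as high or higher in the cells with few neuron transcripts. There *Slc4a4* stood at 9802 ± 2650 CPM, *Ldhb* at 18648 ± 4756 CPM and *Ppargc1a* at 5241 ± 522 CPM, while *Slc17a7* stood at 300 ± 215 CPM and *Vsnl1* at 2051 ± 1052 CPM. Among the 56 neurons without *Scn10a* that held no glial transcript, compared with 141 matched neurons that held none, the log2 fold change was 2.91 for *Slc4a4* (edgeR adjusted p = 0.00219) and 1.42 for *Ldhb*. *Vsnl1* and *Slc17a7* were too rare for a test there, at mean levels of 6386 and 2820 CPM.

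**Figure D2:**
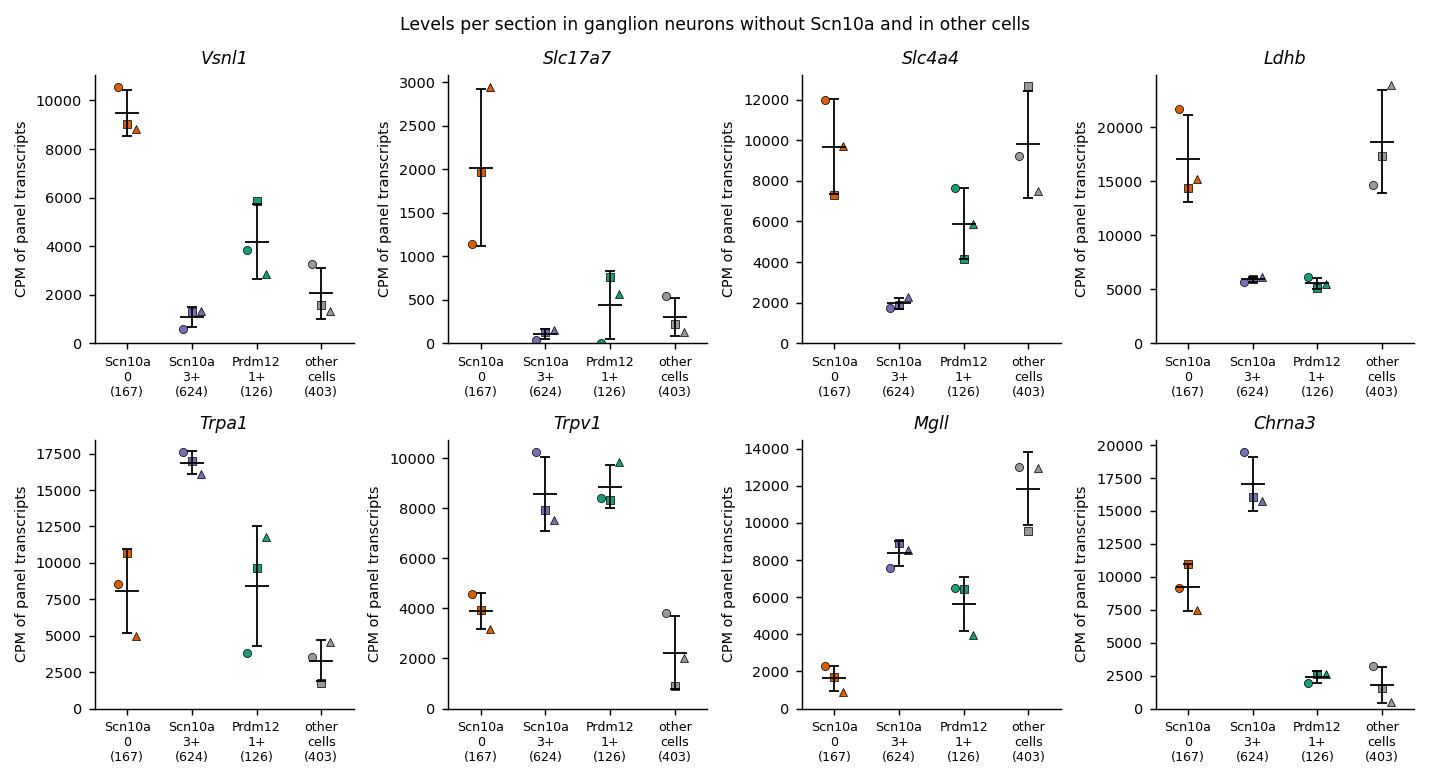
Points are the CPM of 8 genes in each section (circle, square and triangle for sections 1, 2 and 3) in neurons without *Scn10a* (167 cells), matched *Scn10a* neurons (624), neurons with 1 or more *Prdm12* (126) and cells with fewer than 5 neuron transcripts (403), with the mean and SD as dash and bar. *Vsnl1* and *Slc17a7* were highest in the neurons without *Scn10a*, *Slc4a4* and *Ldhb* were as high in the cells with few neuron transcripts, and *Trpa1*, *Trpv1*, *Mgll* and *Chrna3* were below the matched neurons in every section.

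*Trpv1*, *Trpa1* and *Trpc4*, all TRP cation channels, were lower. *Trpv1*, the capsaicin receptor, stood at 4570, 3945 and 3169 CPM against 10254, 7932 and 7509 CPM (log2 -1.41 ± 0.21, edgeR adjusted p = 1.45e-05). *Trpa1*, the receptor for reactive irritants, stood at 8569, 10707 and 4980 CPM against 17608, 16966 and 16071 CPM (log2 -1.36 ± 0.17, edgeR adjusted p = 2.26e-06). *Trpc4*, a receptor-operated cation channel, stood at 4856, 3381 and 4753 CPM against 9052, 9843 and 8133 CPM (log2 -1.30 ± 0.21, edgeR adjusted p = 3.39e-05). Every section of the neurons without *Scn10a* lay below every section of the matched neurons for these channels. Of 10 TRP channels listed, 7 were tested and 3 were lower, none higher, with a median of -0.66, against 24.6% lower and a median of -0.03 over all genes. *Trpm3*, a heat and steroid-gated channel, had a log2 of 0.49 (edgeR adjusted p = 0.0773) and did not pass. With cells thinned to 30 transcripts, *Trpv1* and *Trpc4* no longer passed against the matched neurons, nor did *Chrna3*, and without section 1 *Trpa1* and *Trpc4* did not. The transcripts were not absent: *Trpa1* was counted in 36 of the 167 neurons and *Trpv1* in 33.

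*Chrna3*, a nicotinic receptor subunit found in autonomic and some vagal neurons, stood at 9140.2, 10989 and 7469 CPM against 19447, 16027 and 15749 CPM (log2 -1.16 ± 0.15, edgeR adjusted p = 2.86e-06). *Gria2*, an AMPA receptor subunit, was also lower (log2 -1.18 ± 0.17, edgeR adjusted p = 1.26e-05), at 7525 ± 2255 against 14321 ± 614 CPM. *Gria2* did not pass without section 1 (edgeR adjusted p = 0.0631) or among neurons of 100 or more transcripts (log2 -0.31, edgeR adjusted p = 0.348). *P2rx3*, the ATP receptor of vagal afferents, did not pass, at 15995, 13525 and 17881 CPM against 11668, 10911 and 12436 CPM (log2 0.17 ± 0.13, edgeR adjusted p = 0.271). The sections of *P2rx3* did not overlap, but its log2 fold change is set against the other genes after the genes of the choice were left out. Of 3 transmitter receptors tested 2 were lower, beside 24.6% of all genes tested.

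*Mgll*, the lipase that degrades the endocannabinoid 2-arachidonoylglycerol, stood at 2285, 1691 and 905 CPM against 7602, 8936 and 8563 CPM (log2 -2.67 ± 0.28, edgeR adjusted p = 4.87e-07). *Chl1*, a neural adhesion molecule, stood at 8283, 9580 and 7017 CPM against 16336, 16253 and 16846 CPM (log2 -1.27 ± 0.15, edgeR adjusted p = 1.17e-06). Both groups were separate in all sections. In the cells with few neuron transcripts, *Mgll* stood higher still, at 11856 ± 1978 CPM.

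Mas-related receptors, which mark itch-sensing and other small-diameter neurons, were rare. *Mrgpra2b* had 3 transcripts in the neurons without *Scn10a* and 250 in the matched neurons. Per transcript counted that was 9.05 times lower, with a 95% exact counting interval of 3.06 to 44.2 times. *Mrgpra1* had 0 transcripts, against 610 CPM in the matched neurons. Taken at a floor of 3 transcripts over all the neurons without *Scn10a*, its level was at least 2.33-fold below the matched neurons. *Mrgpra3*, with 11 transcripts, stood at 926 ± 402 CPM against 405 CPM in all *Scn10a* neurons and did not pass (edgeR adjusted p = 0.125). *Mrgpra1* and *Mrgpra2b* entered the fit only through the *Scn10a* neurons, where they were high, so no p is given for them. Intervals and floors cover counting error only.

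Among peptides, *Vip*, the vasoactive intestinal peptide, was lower at 1428, 4227 and 1358 CPM against 3536, 4630 and 5034 CPM (log2 -1.23 ± 0.32, edgeR adjusted p = 0.00344). Its sections overlapped, since section 2 reached the range of the matched neurons. *Adcyap1*, which encodes PACAP, was lower (log2 -0.49 ± 0.20, edgeR adjusted p = 0.0434), and *Tac1*, the substance P precursor, did not pass (log2 0.54, edgeR adjusted p = 0.231). *Nos1*, neuronal nitric oxide synthase, was lower (log2 -1.04 ± 0.40, edgeR adjusted p = 0.0377), but lost its call on leaving out section 1, 2 or 3 and by DESeq2 or library size alone. *Vip* and *Adcyap1* did not pass without section 1 or section 3. *Nos1*, *Chrna3* and *Vip* were the 3 tested genes of the autonomic list, all 3 called lower in the fit on all sections, beside 24.6% of all genes tested. The list summed to 12670 ± 3502 CPM in the neurons without *Scn10a* and to 23444 CPM in the matched neurons, with *Npy* at 0.

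For 3 further genes very few transcripts were counted. As they entered the fit only through the *Scn10a* neurons, they are given with no p. *Aqp1*, a water channel, had 3 transcripts in the neurons without *Scn10a* and 179 in all *Scn10a* neurons, a ratio 5.42 times lower per transcript counted (interval 1.83 to 26.5). *Areg*, the growth factor amphiregulin, had 2 and 98, 4.45 times lower (1.20 to 37.3). *Dnase1l3*, a secreted nuclease, had 1 and 84, 7.63 times lower (1.33 to 305). None of the 3 was abundant enough to test against the matched neurons.

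**Figure D3:**
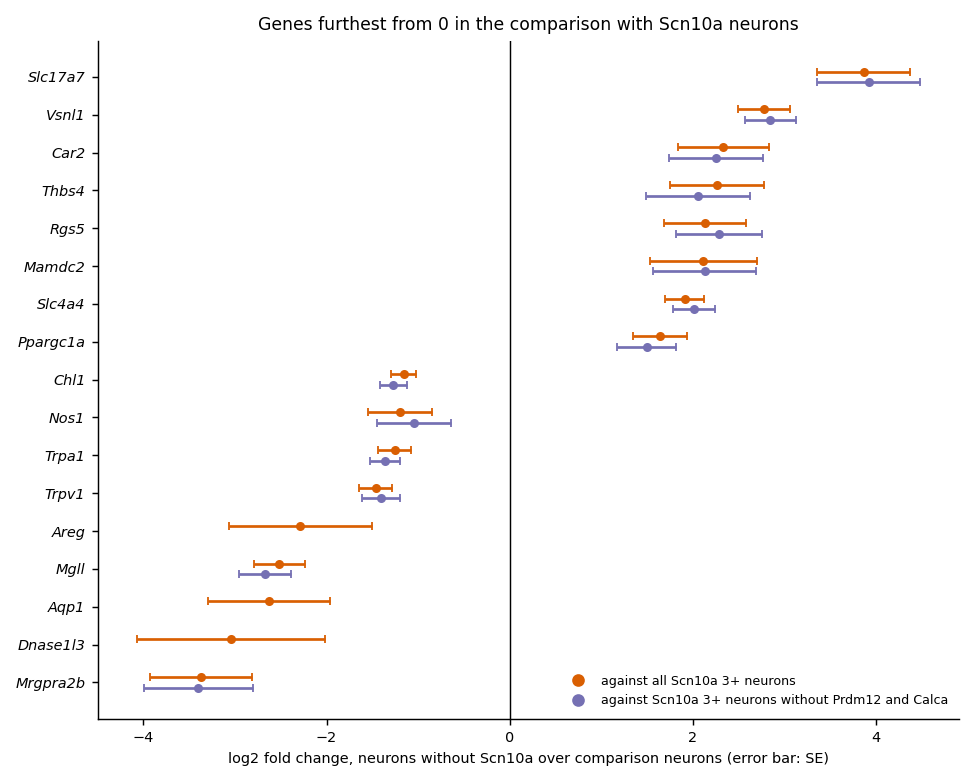
Points are log2 fold changes of the neurons without *Scn10a* over all *Scn10a* neurons (orange) and over matched *Scn10a* neurons (purple) with bars of 1 SE, for genes furthest from 0 in the first comparison, without *Mrgpra1* (0 transcripts) and the glial genes. *Slc17a7* and *Vsnl1* lay furthest to the right, and of those furthest to the left *Mrgpra2b*, *Dnase1l3*, *Aqp1* and *Areg* rested on 1 to 3 transcripts in the neurons without *Scn10a*.

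Genes that mark the jugular part were read next, although the choice itself removed *Prdm12* and most *Calca*. *P2rx3* and *Slc17a6*, which mark nodose neurons among others, are given above. The jugular list without *Prdm12* summed to 4350 ± 1622 CPM against 3707 CPM, and to 32041 CPM in the neurons with *Prdm12*. Neither of its 2 tested genes, *Tac1* and *Runx1*, passed (*Runx1* log2 -0.77, edgeR adjusted p = 0.121).

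Of 8 transcription factors tested, 3 were lower against the matched neurons and none higher, with a median of -0.61, beside 24.6% lower and 25.4% higher over all genes tested. Besides *Etv1*, *Cux2*, a homeobox factor of projection and mechanosensory neurons, was lower (log2 -0.79 ± 0.18, edgeR adjusted p = 0.00115). *Cux2* did not pass without section 1 or section 3 or at either depth (log2 -0.055 at 100 or more transcripts, edgeR adjusted p = 0.999, and -0.43 at 30 to 99, edgeR adjusted p = 0.398). *Etv1* did not pass at either depth (log2 -0.51, edgeR adjusted p = 0.0729, and -0.38, edgeR adjusted p = 0.0722). *Satb1*, a chromatin organizer, stood at 3999, 3663 and 5659 CPM against 2440, 2849 and 2216 CPM. It passed against all *Scn10a* neurons (log2 0.73 ± 0.27, edgeR adjusted p = 0.0488) and not against the matched ones (log2 0.60, edgeR adjusted p = 0.075).

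Of the general neuron list, 12 of 13 genes were tested against the matched neurons, with 2 higher (*Cplx2* and *Vsnl1*), 4 lower and a median of -0.20. Over all genes tested, 25.4% were higher and 24.6% lower. *Celf3*, a neuronal splicing regulator, was among the lower ones (log2 -0.81 ± 0.17, edgeR adjusted p = 0.000667). *Celf3* did not pass without section 1 or section 3, and its change turned sign among neurons of 100 or more transcripts. *Stmn1*, a tubulin-binding protein, was close between the groups at 22402 ± 1833 and 20570.0 CPM (log2 -0.13, edgeR adjusted p = 0.309). The list summed to 141561 ± 11778 CPM in the neurons without *Scn10a*, 125913 CPM in the matched neurons and 43807 CPM in the cells with few neuron transcripts. Secretory granule genes were mixed, with 1 of 5 tested higher and 2 lower, beside the same 25.4% and 24.6% of all genes. Of 3 imprinted genes 2 were lower, beside 24.6%, among them *Nnat*, neuronatin (log2 -0.76 ± 0.16, edgeR adjusted p = 0.000433). None of the 3 interleukin and receptor genes or the 2 chemokine and receptor genes tested passed in either comparison.

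Glial genes stood higher in the neurons without *Scn10a*, and are given as a description. *Sox2*, a transcription factor of satellite glia, stood at 5427, 6199 and 7696 CPM against 1697, 1489 and 1915 CPM in the matched neurons. *Prx*, periaxin of myelinating Schwann cells, stood at 3999, 3945 and 2943 CPM against 1450, 842 and 796 CPM. Each was separate in every section. *Pmp22*, a myelin protein, differed less, at 9426, 10426 and 10412 CPM against 6930, 7414 and 7702 CPM. *Gfap*, the glial filament, had 3 transcripts in all.

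The 5 glial genes summed to 26429 ± 1388 CPM (25136 to 27895) in the neurons without *Scn10a*, 11941 ± 416 CPM (11462 to 12199) in the matched neurons and 26120 ± 4348 CPM in the cells with few neuron transcripts. By depth the sum was 29677 CPM in the neurons without *Scn10a* of 30 to 49 transcripts, 31275 CPM in those of 50 to 99 and 16319 CPM in those of 100 or more. Matched neurons of 100 or more transcripts stood at 10790 CPM. Set against matched neurons of like depth, *Sox2* had a log2 fold change of 0.78 at 30 to 99 transcripts and 0.10 at 100 or more. Over all cells it had 1.66. *Prx* had 1.39 and 0.83, beside 1.57 over all cells, and *Pmp22* had 0.04 and -0.13, beside 0.19. No glial transcript was counted in 56 of the 167 neurons (33.5%). The part of glial transcripts in the other results was not tested, apart from the fit on neurons that held none. *Ndrg1*, a stress and myelination gene, stood at 15139, 18879 and 16976 CPM against 6223, 5666 and 6820.1 CPM (log2 1.18 ± 0.15, edgeR adjusted p = 4.52e-06), and at 15948 ± 2708 CPM in the cells with few neuron transcripts.

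Summed markers of several other cell types were higher too. The fibroblast list summed to 21652 ± 5311 CPM against 13987 CPM in the matched neurons, with *Dpt* at 0 in the neurons without *Scn10a*. Of its 6 genes tested 3 were higher, beside 25.4% of all genes tested. They included *Lum*, a collagen-binding proteoglycan (log2 1.47 ± 0.40, edgeR adjusted p = 0.00485), and *Bgn*, biglycan (log2 1.39 ± 0.43, edgeR adjusted p = 0.0119). The mural list summed to 2930 ± 599 CPM against 1065 CPM, with *Higd1b* and *Cnn1* at 0. Its 1 tested gene, *Rgs5* of pericytes, stood at 2285, 1409 and 2716 CPM against 212, 259 and 581 CPM (log2 2.29 ± 0.47). *Rgs5* entered the fit only through the neurons without *Scn10a*, so no p is given for it. The endothelial list summed to 6342 ± 2527 against 2975 CPM and the macrophage list to 3745 ± 881 against 1848 CPM, with *Mmrn1*, *Lyve1*, *Mpeg1* and *Folr2* at 0. The lymphocyte and fat cell lists were low, at 660 and 397 CPM against 803 and 733 CPM.

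Outside those lists, higher genes included *Thbs4*, thrombospondin 4 (log2 2.06 ± 0.57), *Mamdc2* (log2 2.13 ± 0.56) and *Sostdc1*, an inhibitor of BMP and Wnt signals (log2 1.38 ± 0.38, edgeR adjusted p = 0.00483). *Thbs4* and *Mamdc2* entered the fit only through the neurons without *Scn10a*, so no p is given for them. *Thbs4*, *Mamdc2*, *Sostdc1*, *Lum* and *Bgn* did not pass without the filter on low counts. Against the matched neurons, *Bgn* also lost its call on leaving out section 1, 2 or 3. *Lum* and *Mamdc2* lost theirs without section 1 or 3, *Sostdc1* without section 1 or 2 and *Thbs4* without section 3. In the 24 neurons without *Scn10a* that held 100 or more transcripts, *Lum*, *Rgs5*, *Thbs4* and all 7 mural genes were at 0 of 3702 transcripts, which allows a level of up to 810.4 CPM. Matched neurons of that depth had a summed mural level of 962 CPM.

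The change was then read at matched depth. Among neurons of 100 or more transcripts, 24 without *Scn10a* were set against 430 matched *Scn10a* neurons, and 7 genes were higher and 10 lower. Among those of 30 to 99 transcripts, 143 were set against 194, and 9 were higher and 11 lower. These fits were chosen after the data were seen. *Vsnl1* held at both depths, with a log2 of 3.12 (edgeR adjusted p = 0.0101) in the deeper neurons and 3.01 (edgeR adjusted p = 2.06e-07) in the shallower. *Slc4a4* did too, at 2.08 (edgeR adjusted p = 0.0229) and 1.17 (edgeR adjusted p = 0.000859), and so did *Cplx2*, at 1.14 and 0.88. *Car2* could be fitted in the deeper neurons only (log2 3.20), again given without p, and did not pass. *Sostdc1* passed at neither depth (0.54, edgeR adjusted p = 0.744, and 0.64, edgeR adjusted p = 0.524). *Ldhb* passed in the shallower neurons only (0.83, edgeR adjusted p = 0.000311), with 1.28 in the deeper ones (edgeR adjusted p = 0.0638), and *Ppargc1a* passed in neither, at 1.14 (edgeR adjusted p = 0.287) and 0.94 (edgeR adjusted p = 0.254).

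Among the lower genes, *Trpv1* had a log2 of -2.44 in the deeper neurons (edgeR adjusted p = 0.0229) and -0.07 in the shallower (edgeR adjusted p = 0.93). Its mean level in the matched neurons was itself 9265 CPM at 100 or more transcripts and 4380 CPM at 30 to 99. *Trpc4* followed the same course, at -1.48 (edgeR adjusted p = 0.0322) and -0.34 (edgeR adjusted p = 0.473). *Trpa1*, at -2.93 (edgeR adjusted p = 0.0287) and -0.70 (edgeR adjusted p = 0.00205), and *Chrna3*, at -1.96 (edgeR adjusted p = 0.0229) and -0.64 (edgeR adjusted p = 0.00426), passed at both depths, and so did *Chl1*, at -1.51 and -1.11. *Mgll* had 1 of 3702 transcripts in the deeper neurons without *Scn10a* and 776 of 92066 in the deeper matched neurons, and its log2 in the shallower was -2.09 (edgeR adjusted p = 2.06e-07). *Slc17a6* had -0.52 (edgeR adjusted p = 0.0585) and -0.59 (edgeR adjusted p = 0.00276), and *Vip* -1.59 (edgeR adjusted p = 0.0483) and -0.61 (edgeR adjusted p = 0.473). *Adcyap1* and *Nos1* did not pass at either depth where fitted. Whether the change itself differed between depths was not tested.

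**Figure D4:**
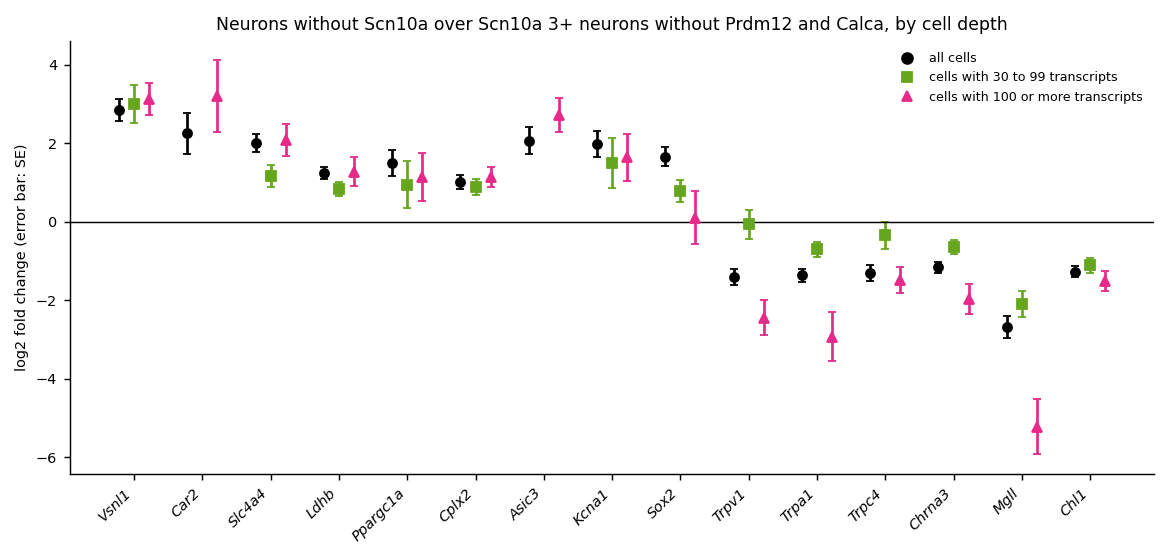
Points are log2 fold changes of the neurons without *Scn10a* over matched *Scn10a* neurons with bars of 1 SE, for all cells, for cells of 30 to 99 transcripts and for cells of 100 or more. *Vsnl1* lay near 3 in all 3 fits, and *Trpv1* and *Trpc4* lay near 0 at 30 to 99 transcripts and well below 0 at 100 or more, where *Mgll* rested on 1 transcript in the neurons without *Scn10a*.

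The neurons without *Scn10a* varied among themselves. As a description made after their values were seen, and with no test, the 24 neurons that held 2 or more transcripts of *Vsnl1* (10, 5 and 9 in sections 1, 2 and 3, median 84.5 transcripts) were set beside the 121 with none (median 52). In the neurons with *Vsnl1*, *Slc17a7* stood at 3565, 14085 and 8611 CPM, and in those without at 0, 0 and 1731 CPM. *Car2* stood at 4456, 10060.4 and 4306 CPM against 1539, 414 and 346 CPM. *Satb1* stood at 8021, 18109 and 9688 CPM against 1539, 1241 and 4848 CPM. The sections of each of these genes stayed apart between the groups, but on few transcripts. The neurons with *Vsnl1* held 1122, 497 and 929 transcripts in sections 1, 2 and 3. There, 3 transcripts of a gene amount to 2674, 6036 and 3229 CPM.

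*Cux2* stood at 17825, 18109 and 8611 CPM against 4618, 2068 and 6925 CPM, and *P2rx3* at 19608, 36217 and 30140 CPM against 13340.2, 9098 and 14543 CPM. *Cux2*, lower over all the neurons without *Scn10a*, was thus above the matched *Scn10a* neurons (10702 ± 685 CPM) in the mean of those with *Vsnl1*, at 14848 ± 5403 CPM, though not in section 3. *Pvalb* had 15 transcripts in 5 of the 24 neurons and 2 transcripts in 2 of the 121. *Asic3* was counted in 10 of the 24 and in 12 of the 121.

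On the other side, *Nnat* had 145 transcripts in 51 of the 121 neurons without *Vsnl1*, at 12314, 22746 and 22853 CPM, and 0 in the 24 with it, which allows up to 1177 CPM. *Chrna3* had 90 transcripts in 52 of the 121 neurons and 1 in the 24. *Trpa1* stood at 11801, 14061 and 6925 CPM in the neurons without *Vsnl1* and at 4456, 0 and 2153 CPM in those with it, and *Trpv1* at 6157, 3722 and 3463 CPM against 1783, 2012 and 1076 CPM. *Vip* and *Nos1* had 23 and 12 transcripts in the neurons without *Vsnl1* and 0 in those with it. The 121 neurons therefore stood close to the matched *Scn10a* neurons in *Nnat* (19304 ± 6054 against 19423 CPM) and between the other groups in *Trpa1* and *Chrna3*. Depth differed between these groups, and its part was not tested.

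**Figure D5:**
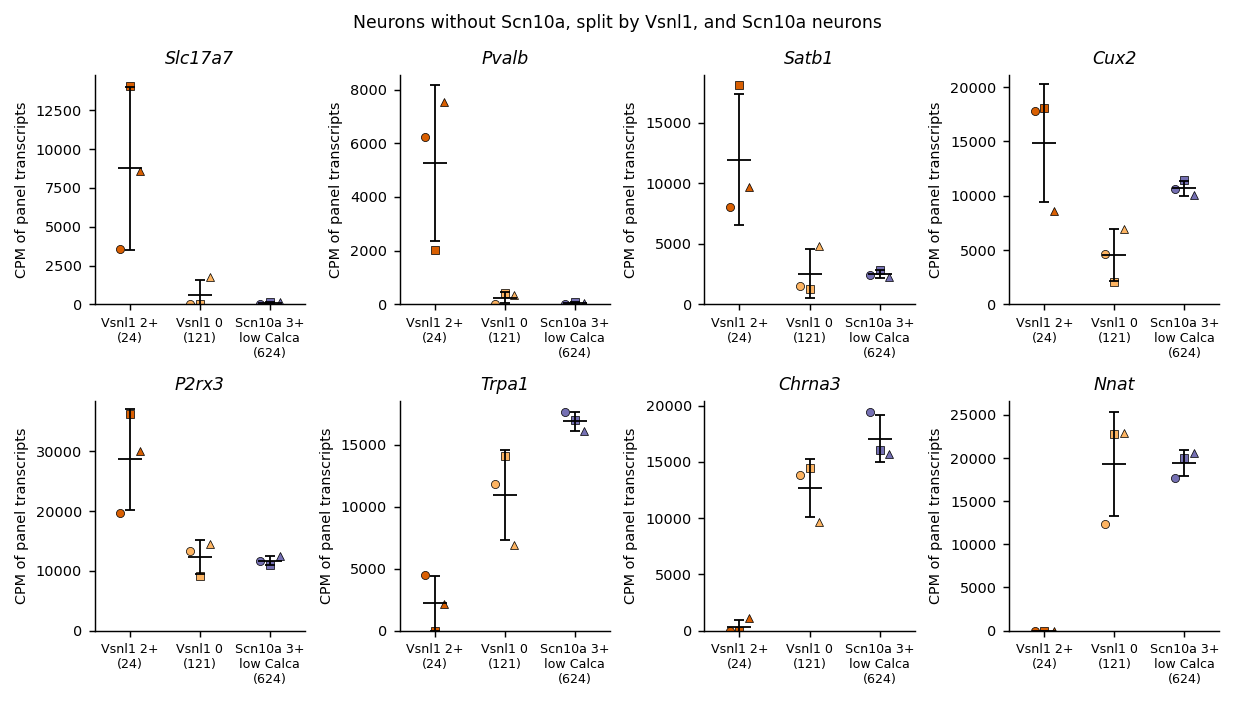
Points are the CPM of 8 genes in each section (circle, square and triangle for sections 1, 2 and 3), with the mean and SD, in neurons without *Scn10a* that held 2 or more transcripts of *Vsnl1* (24 cells) or none (121 cells) and in matched *Scn10a* neurons (624 cells). *Slc17a7*, *Pvalb*, *Satb1*, *Cux2* and *P2rx3* were highest in the first group, and *Nnat* and *Chrna3* were at or near 0 there.

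The genes were also counted together in single neurons. *Vsnl1* was found in 53.8% of the 26 neurons with *Asic3* and in 22.7% of those without it, and in 9 of the 13 neurons with *Slc17a7*. *Cplx2* was found in 84.6% of the neurons with *Asic3* and in 39.0% of those without, and *Chrna3* in 7.69% and 42.6%. These shares were not thinned, and neurons in which a rare transcript was counted tended to be deeper.

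The neurons with 2 or more transcripts of *Asic3* (11 cells: 3, 3 and 5 by section, median 170 transcripts) were tested against the 141 with none (median 53). Of 48 genes, 15 (31.2%) passed, of which 6 were higher (12.5%) and 9 lower (18.8%), with a median log2 of -0.24. *P2rx3* was higher at 32050 ± 738 against 12640 ± 766 CPM (SD, n = 3; log2 1.14 ± 0.20, edgeR adjusted p = 0.0239). *Gria2* (log2 1.54 ± 0.43) and *Celf3* (log2 2.38 ± 0.29) were higher too. So were *Myt1l*, a neuronal transcription factor (log2 1.76 ± 0.44), and *A330076H08Rik*, a transcript of an imprinted locus (log2 2.86 ± 0.26). *Gria2*, *Celf3*, *Myt1l* and *A330076H08Rik* entered the fit only through the neurons with *Asic3*, where they were high, so no p is given for them.

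*Chrna3* had 1 transcript in the neurons with *Asic3* and 102 in those without, 19.9 times lower per transcript counted (interval 3.49 to 793). *Ndrg1* was lower (log2 -2.90 ± 0.36), on 5 transcripts against 174. *Serpina3n*, a protease inhibitor, had 2 transcripts against 61. *Chrna3*, *Ndrg1* and *Serpina3n* entered the fit only through the neurons without *Asic3*, so no p is given for them. The glial gene *Sox2* had 1 transcript there, against 68. *Vsnl1* did not differ beyond the test (log2 -0.41, edgeR adjusted p = 0.49). This comparison was fragile: without section 2 or without section 3 it called 0 genes by edgeR, with 17 and 8 at an unadjusted p under 0.05, and with cells thinned to 30 transcripts it called 1. Among cells of 50 or more transcripts (10 against 82) it called 12 genes. Of the 12 genes called over all cells that were tested there, 10 were called again, *P2rx3* among them.

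Single neurons differed in the same genes. The deepest neuron of section 3 held 294 transcripts, with 28 of *Snap25*, 20 of *Tubb3*, 19 of *P2rx3*, 7 of *Pvalb*, 6 of *Vsnl1* and 5 of *Asic3*, and 4 glial transcripts. The deepest of section 2 held 223, with 16 of *P2rx3*, 7 of *Satb1* and 7 of *Vsnl1*, and 2 glial transcripts. In section 1 the deepest held 191, with 6 of *Ldhb*, 5 of *Slc4a4*, 5 of *Cux2* and 5 of *P2rx3*, and 1 glial transcript. The next deepest of section 3, with 265 transcripts, held 28 of *Nnat* and 12 of *Etv1*.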

How the data were processed

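Xenium in situ transcripts were analysed in 3 vagal ganglion sections (3211, 2716 and 3858 cells; 70313, 73733 and 108121 transcripts; medians of 7, 9 and 9 per cell). The deposited values were whole-number counts of transcripts per cell for 470 genes; the authors made them with Xenium Ranger and Seurat, without normalization, and the build is not given in the sources used here. In all 9785 cells the summed counts equalled the total in the deposited metadata, and 0 barcodes were shared between sections. The lung sample had no cells in the table and was not used here.

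Counts were summed over the cells of a class in each section. The 7 genes of the choice (*Snap25*, *Tubb3*, *Scg2*, *Gap43*, *Scn10a*, *Prdm12* and *Calca*) were left out of sums and library sizes, leaving 463, and edgeR 4.0.16 in R 4.3.3 (filterByExpr, TMM, quasi-likelihood test, section as block) was run with Benjamini-Hochberg adjustment and a threshold of 0.05. CPM used all 470 genes. Thinned shares are the expected share of cells with at least 1 transcript at 30 per cell. Levels of 0 were set against a floor of 3 transcripts. Alternatives used DESeq2 1.42.0 and limma 3.58.1, and class steps used Python 3.11.15. The section number is the same section in every class compared, so the block pairs cells of 1 section. On simulated data, the comparison with all *Scn10a* neurons recovered 55.9% of 34 genes changed by a log2 of 1 and 100% of 36 changed by 2.

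The members and gene lists were chosen with earlier results of these data known. Genes named are the 10 most changed each way, in every section, against all *Scn10a* neurons, the 5 each way in the other comparisons, the most abundant genes of each list and genes chosen after their values were seen. Doublets were not called, since cells were segmented from images. Gene positions were matched by symbol (469 of 470) to RefSeq GRCm38.p6. Results for some genes are not reported here.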

Additional observations from a re-analysis of the deposited data

How the results depend on the processing

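Depth is a limit, since 143 of the 167 neurons held fewer than 100 transcripts. The share of neurons without *Scn10a* was 12.6%, and it was 9.52% with at least 50 transcripts per cell, 8.56% with at least 10 neuron transcripts and 26.2% with up to 1 transcript of *Scn10a* allowed. Genes called numbered 58 against all *Scn10a* neurons, 59 against the matched ones and 15 between neurons with and without *Asic3*. They numbered 27, 31 and 3 with limma, and 29, 24 and 1 with cells thinned to 30 transcripts. In the first 2 comparisons they numbered 35 and 39 with at least 10 neuron transcripts, and, in alternatives chosen after seeing the data, 16 and 17 with 100 or more transcripts, 21 and 20 with 30 to 99, and 14 and 20 in cells with no glial transcript. With *Asic3* of 3 or more the third comparison called 7. Leaving out each section in turn gave 52 to 61, 25 to 56 and 0 to 6 calls, the lowest of the second without section 1, with 32 without section 3. Without section 1, *Trpa1* (edgeR adjusted p = 0.0594), *Trpc4*, *Car2*, *Cplx2* and *Ppargc1a* no longer passed against the matched neurons. Without the section block the comparisons called 65, 64 and 18 genes, and the replicate block changed no call of a named gene. Without the filter on low counts the first 2 comparisons called 66 (12 higher, 54 lower) and 68 (12 higher, 56 lower), and the median of all genes moved to -0.64 and -0.61. Against all *Scn10a* neurons the log2 fold change turned sign for *Asic3* (-0.053), *Cplx2* (-0.025) and *Pmp22* (-0.37) without the filter, for *Asic3* (-0.53) and *Satb1* (-0.13) at 30 to 99 transcripts, and for *Cux2* (0.0145) and *Pmp22* (-0.18) at 100 or more. Against the matched neurons it did so for *Pmp22* (-0.51 without the filter and -0.13 at 100 or more) and *Adcyap1* (0.01 at 30 to 99). At 100 or more transcripts it also turned sign for *Celf3* in both comparisons and for *A330076H08Rik* against the matched neurons. The cause was not tested.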
